A study of Mus musculus with 6 samples.

Results

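Goblet cells of the mouse ileal crypt were examined in 6 single-cell RNA sequencing libraries. Barcodes were kept where they held at least 1000 UMIs (unique molecular identifiers, each marking 1 captured transcript), at least 500 genes and at most 20% of UMIs in mitochondrially encoded genes. A kept barcode was taken as a goblet cell where at least 4 of the 6 markers Muc2, Fcgbp, Clca1, Zg16, Tff3 and Agr2 were detected, the markers made up at least 1% of its UMIs, and 7 Paneth cell genes (Defa21, Defa22, Defa24, Defa30, Gm14851, Mptx2 and Lyz1) made up less than 10%. By this rule 1975 of 17104 kept barcodes were goblet cells. The levels of these 13 genes chose the cells, so they are given as a description, and no test of them is used, although they stayed in the fit across all genes.

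Goblet cells are the mucus-secreting lineage of the intestinal epithelium. They arise from crypt progenitors in which Notch signalling is low and the transcription factor Atoh1 is on, and the factor Spdef drives their maturation. Their main product, the gel-forming mucin Muc2, is folded in the endoplasmic reticulum with the help of the disulphide isomerase Agr2, decorated with O-linked sugars in the Golgi, packed into granules and released onto the epithelial surface. Fcgbp, Clca1, Zg16 and Tff3 are secreted with it: a mucin-binding protein, a mucus-processing protease, a lectin and a trefoil peptide.

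The study compared mice with an intact floxed Fpr2 gene (Fpr2f/f) with mice in which Cre recombinase under the Villin promoter deletes the floxed gene in the intestinal epithelium (Fpr2VKO), both on the C57BL/6J background and 8 to 12 weeks old. Fpr2 encodes formyl peptide receptor 2, a G protein-coupled receptor. Ileal crypts were dissociated, EpCAM-positive epithelial cells were sorted by flow cytometry, and libraries were made on the MobiNova-100 platform, with 3 libraries per genotype. The experiment used 3 mice per genotype, so the libraries of a genotype were taken as separate mice.

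The libraries held 90142126 to 189516114 UMIs, of which 7.25% to 13.1% lay in barcodes with fewer than 100 UMIs, used below as a measure of free RNA. Goblet cells contributed 2427250 to 6521939 UMIs per library. Fpr2 had 0 UMIs in the goblet cells and in all barcodes of all 6 libraries, in both genotypes. A count of 0 allows up to 3 counts, or 0.460 to 1.24 CPM (counts scaled to a common total) in the goblet cells of a library, so the transcript counts could not check the genotype labels. Of 1973 distinct goblet cell barcode positions in the matrices, 2 occurred in more than 1 library. Equal positions mean equal barcode sequences only if all libraries list the barcodes in the same order, which was not checked.

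The cells carried the marker signature on which they were chosen. The 6 markers together stood at 79712 to 91299 CPM in the Fpr2f/f goblet cells and at 77295 to 80831 CPM in the Fpr2VKO goblet cells, against 570.3 to 1052 CPM in the other kept barcodes and 3432 to 6487 CPM in free RNA. A Muc2 UMI was found in 93.2% to 98.3% of goblet cells, while 17.9% to 39.0% of the other kept barcodes also had one. All 6 markers were detected in 1331 cells, 5 in 358 and 4 in 286. Just inside the limit on the marker sum lay 32 cells with 1% to 1.1% of their UMIs in the markers, and just outside it lay 43 barcodes with 0.9% to 1%. A further 1601 barcodes met the goblet limits with 20% to 40% mitochondrial UMIs and were left out by the rule.

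Markers of other lineages were low but not absent. In the goblet cells the summed level of 12 enterocyte markers ranged from 1213 to 1326 CPM in Fpr2f/f and from 1385 to 1760 CPM in Fpr2VKO. The 12 Paneth markers, which include all 7 Paneth genes of the rule, ranged from 5392 to 13979 CPM and from 5570.1 to 6929 CPM. The 13 enteroendocrine markers ranged from 340.5 to 522 CPM in Fpr2f/f and from 149 to 218 CPM in Fpr2VKO, without overlap, and Neurod1 was at 0. Single cells carried part of these sums. For the marker Chgb, 1 cell held 506 of 579 UMIs in Fpr2f/f library 1 and 1 cell held 309 of 328 in library 3. Tuft markers (7.83 to 13.4 CPM, Il25 at 0) and immune markers (4.81 to 58.8 CPM, Igkc at 0) were low in both genotypes.

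Outside the rule, and among genes at 100 CPM or more in goblet cells, the highest fold over the other kept barcodes was that of Fer1l6, a ferlin, at 75.6-fold. It was followed by Bcas1 (64.2-fold), the tryptase Tpsg1 (55.4-fold), the aspartyl protease Bace2 (48.8-fold), the calpain Capn9 (47.7-fold) and the Rab15 effector Rep15 (47.2-fold). Next were the anoctamin Ano7 (34.7-fold), the mucin core enzyme Gcnt3 (29.2-fold), the calcium-binding protein S100a6 (26.9-fold), the goblet-enriched unfolded protein sensor Ern2 (25.4-fold) and the actin-severing protein Scin (24.8-fold). The kallikrein Klk1 (23.8-fold), the granule-docking protein Sytl2 (23.3-fold) and Atoh1 (23.2-fold) closed the list. Each was higher in 6 of 6 libraries. These folds describe cells chosen by expression and carry no test.

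The goblet cells varied widely in marker content, and other genes moved with it. Of the cells, 294 held 1% to 2% of their UMIs in the markers, 616 held 2% to 5%, 590 held 5% to 10% and 475 held at least 10%. At a common depth of 2000 UMIs per cell, at least 1 UMI in 16 mitosis genes was found in 67.2%, 51.9%, 30.8% and 20% of the cells in these bands, and the share was lower in the top band than in the lowest band in 6 of 6 libraries. Barcodes with at least 10% of UMIs in Paneth genes, a post-mitotic comparison, gave 24.2% ± 3.07 (SD, n = 3) in Fpr2f/f and 20.2% ± 8.73 (SD, n = 3) in Fpr2VKO at the same depth. The 7 Paneth genes of the rule alone stood at 499430 to 536250 CPM in these barcodes. Fewer of their 2000 UMIs were thus left for other genes, so the share is not an equal background for the goblet bands. Median depth before thinning was 4356, 3602.5, 4957.5 and 11871 UMIs across the 4 goblet bands and 7644 to 44355 UMIs per library in the Paneth-rich barcodes.

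Olfm4, a stem and progenitor cell gene, was at 627 CPM in the lowest band, 394 CPM and 57.8 CPM in the next bands and 31.6 CPM in the top band. The top band was below the lowest in 6 of 6 libraries. Klf4, a factor of goblet cell maturation, went the other way in 6 of 6 libraries, from 213 CPM to 629 CPM over all cells. Spdef stood at 48.9, 96.0, 87.8 and 96.9 CPM, so that it differed mainly between the lowest band and the rest. Over all cells Atoh1 stood at 138, 176, 194 and 224 CPM from the lowest band to the top, but in Fpr2f/f library 1 it was lower in the top band (179 CPM) than in the lowest (204 CPM). The Notch ligand Dll1 was at 129, 179.7, 168 and 142 CPM and had no common order, since it was highest in the band of 2% to 5% in 3 of 6 libraries.

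The secretory machinery also differed between bands. The summed level of the mucin O-glycosylation enzymes was 2042 CPM in the lowest band and 4143 CPM in the top band. Spink4, a secreted protease inhibitor of goblet cells, was at 11714 CPM in the lowest band and 31799 CPM in the top band, and Sytl2 at 89.3 CPM and 433 CPM. The endoplasmic reticulum folding genes stood at 6587 CPM in the lowest band, 10882 CPM in the band of 5% to 10% and 10738 CPM in the top band. The interferon-response genes Ddx60 and Oasl2 were also tied to marker content: Ddx60 was at 10.5, 24.1, 74.3 and 179 CPM, and Oasl2 at 11.8, 21.2, 40.3 and 65.4 CPM, across the bands. These bands were cut on the markers and are a description; depth rose with marker content in the top band, and its part in these levels was not tested.

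**Figure D1:**
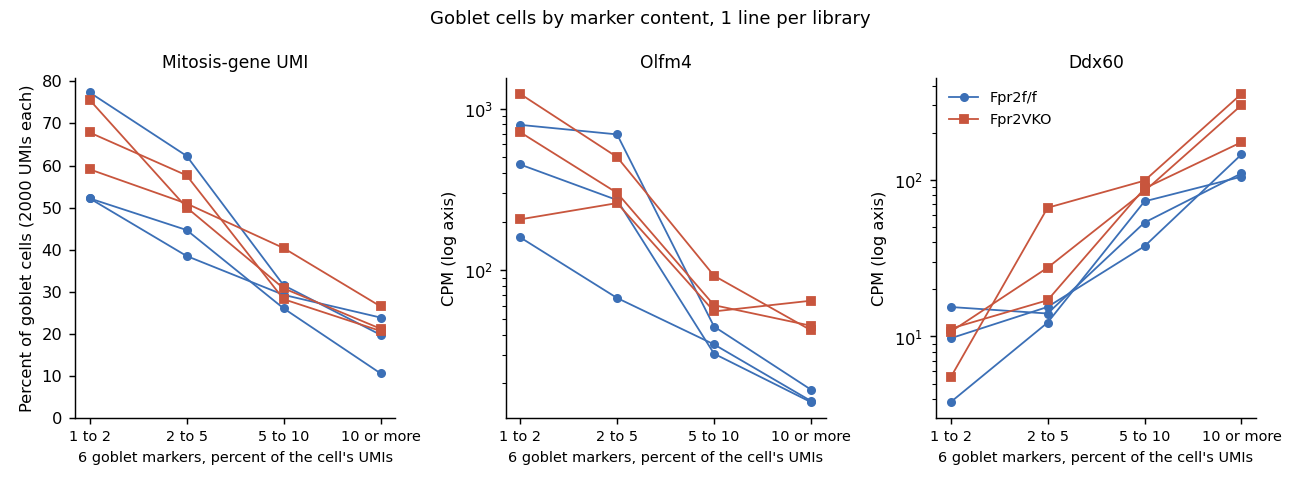
Goblet cells split by the percent of UMIs in the 6 markers (x axis, 4 bands), against the percent of cells with a mitosis-gene UMI at 2000 UMIs each and the levels of Olfm4 and Ddx60 (CPM, log axes), with 1 line per library. In all 6 libraries the mitosis share and Olfm4 are lower, and Ddx60 is higher, in the top band than in the lowest band.

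Clustering of the goblet cells on their 1000 most variable genes, with each library centred on its own mean, gave 7 clusters, which were left unnamed. The genes of the rule were not left out of the clustering. The largest held 486 cells and was led by Sprr1a, the tissue factor gene F3, the thrombospondin gene Thbs1 and Ifrd1. A cluster of 433 cells was led by Ido1, an interferon-inducible tryptophan-degrading enzyme, Ifit1bl1 and the marker Zg16. Zg16 stood at 49442 CPM in it and 14052 CPM in the rest, and its median marker sum was 12.4% of UMIs. A cluster of 420 cells was led by Olfm4 and the proliferation genes Pclaf, Top2a and Mki67, with a median marker sum of 2.38%.

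Of the smaller clusters, 312 cells were led by the Paneth genes Gm14851 and Defa21, with a median of 2130.5 UMIs per cell. Another 170 cells, the deepest with a median of 17560 UMIs, were led by Defa17, Rnase1 and the endocrine lineage factors Neurog3 and Insm1. Enterocyte genes (Fabp6, Fabp1, Reg1 and Sis) led a cluster of 137 cells. The smallest, 17 cells led by the enteroendocrine genes Chgb, Chga, Tac1 and Tph1, made up 0.685% of the goblet cells of Fpr2f/f library 1 and 2.82% of those of library 2, and was not seen in the other 4 libraries. The other 6 clusters were present in every library. Doublets were not removed before clustering, and their part in the clusters with Paneth, enterocyte or enteroendocrine genes was not tested.

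The first comparison asked whether the abundance of goblet cells differed between genotypes. They made up 11.0%, 11.2% and 11.7% of the kept barcodes in Fpr2f/f and 12.1%, 13.0% and 9.96% in Fpr2VKO. The Fpr2VKO libraries thus lay on both sides of the Fpr2f/f libraries. The means were 11.3% ± 0.338 and 11.7% ± 1.56 (SD, n = 3 each), which differed by less than the spread between Fpr2VKO libraries (exact two-sided permutation test, p = 0.7, the smallest possible p being 0.1). The sign depended on the mitochondrial limit: the difference was 3.56 percentage points at a limit of 10% and -1.50 percentage points at a limit of 40%. At 10% the groups did not overlap (means 17.5% and 21.0%, exact two-sided permutation test, p = 0.1). At 40% they overlapped (7.24% and 5.74%, exact two-sided permutation test, p = 0.4). Without Fpr2VKO library 2 it was -0.31 percentage points.

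Median depth per cell did not overlap between the groups at the limits of the rule. The median UMIs per goblet cell were 2759, 5725 and 3786 in Fpr2f/f and 5824, 6435.5 and 7529 in Fpr2VKO. Every Fpr2VKO library was above every Fpr2f/f library, although Fpr2f/f library 2 came close to Fpr2VKO library 1. This depended on the mitochondrial limit: the means differed by 14291 UMIs at a limit of 10%, and by 563 UMIs at a limit of 40%, where the groups overlapped (exact two-sided permutation test, p = 0.5). The means were 4090.0 ± 1506 and 6596 ± 864 UMIs (SD, n = 3 each; exact two-sided permutation test, p = 0.1, the smallest the design allows, and 0.3 when adjusted over the 3 such tests). The other kept barcodes showed the same order, at 4096 ± 899 and 6635 ± 169 UMIs.

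Mitosis transcripts were compared at 2000 UMIs per cell, which left out 15 to 106 shallower cells per library. The share of goblet cells with such a UMI was 32.8%, 42.2% and 30.8% in Fpr2f/f and 42.5%, 36.25% and 43.4% in Fpr2VKO. The groups overlapped, with means of 35.3% ± 6.10 and 40.7% ± 3.88 (SD, n = 3 each; exact two-sided permutation test, p = 0.2). Without thinning the shares were 48.3% to 64.8% and 62.8% to 75.8%. The other kept barcodes were at 58.6% ± 5.53 and 60.8% ± 2.99 (SD, n = 3 each) after thinning.

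**Figure D2:**
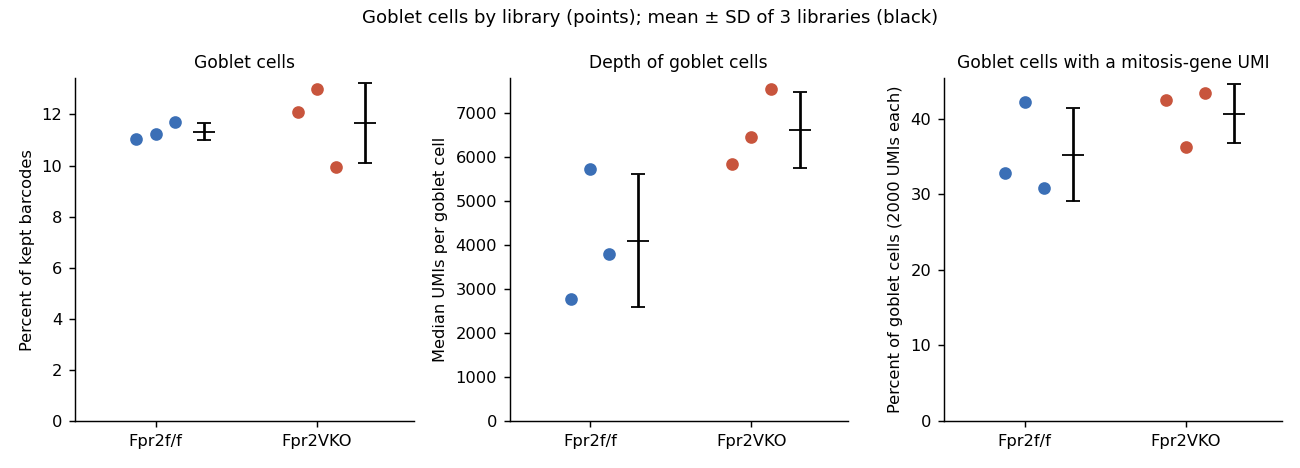
Goblet cells in each of the 6 libraries (points, Fpr2f/f and Fpr2VKO), with the group mean and SD: share of kept barcodes (%), median UMIs per cell, and share of cells with a mitosis UMI after thinning (%). The genotypes overlap in the first and the last measure and do not overlap in depth.

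The next comparison asked which genes differed between genotypes within goblet cells. UMIs were summed over the goblet cells of each library and tested with edgeR's quasi-likelihood test, with library-normalised CPM as the level. Of 10890 genes tested, 9 were called at an adjusted p under 0.05 (0.0826%), of which 4 were higher in Fpr2VKO (0.0367%) and 5 lower (0.0459%). At an unadjusted p under 0.05 there were 940 genes (8.63%). The genes higher in Fpr2VKO were the metallothionein Mt1, the interferon-response genes Oasl2 and Ddx60, and Trim30d. Those lower in Fpr2VKO were Gm15564, Peak1, Fam71a, Gm10076 and Cdk8.

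Mt1 (chr8:94179082-94180327, plus strand, GRCm38) encodes a small cysteine-rich protein that binds zinc and copper. Its level was 90.8, 174 and 175 CPM in the Fpr2f/f libraries and 938, 1049 and 1011 CPM in the Fpr2VKO libraries. All 3 Fpr2VKO libraries were far above the Fpr2f/f range. In goblet cells the log2 fold change amounted to 2.76 (SE 0.22, edgeR quasi-likelihood test, adjusted p = 0.00193), and it was called under 20 of 20 alternative settings. An Mt1 UMI was present in 29.5%, 46.5% and 40.1% of the Fpr2f/f goblet cells and in 94.2%, 88.6% and 97.3% of the Fpr2VKO goblet cells.

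The Mt1 difference was not limited to goblet cells. In the other kept barcodes the log2 fold change was 1.92 (SE 0.15, edgeR, adjusted p = 0.00101), and the difference between both effects did not pass the interaction test (0.86, SE 0.28, edgeR, adjusted p = 1.0). Without further normalisation Mt1 stood at 143 CPM in Fpr2f/f and 1010.1 CPM in Fpr2VKO goblet cells, against 182 and 969.8 CPM in free RNA and 22.7 and 315 CPM in the Paneth-rich barcodes. The level in goblet cells was thus close to that in free RNA in both genotypes, and the part of free RNA in it was not tested. In every band of depth, from 1000 to 2000 UMIs up to at least 20000 UMIs per cell, the Fpr2f/f libraries (58.3 to 213 CPM) lay below the Fpr2VKO libraries (809.6 to 1423 CPM).

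The neighbouring metallothionein Mt2 was at 11.3, 28.4 and 24.8 CPM in Fpr2f/f and 14.6, 44.4 and 41.2 CPM in Fpr2VKO. These values overlapped (log2 fold change 0.55, SE 0.57, edgeR, adjusted p = 0.856). Of the 7 tested metallothionein and zinc transporter genes, Mt1 alone was called, and the median log2 fold change was 0.15.

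**Figure D3:**
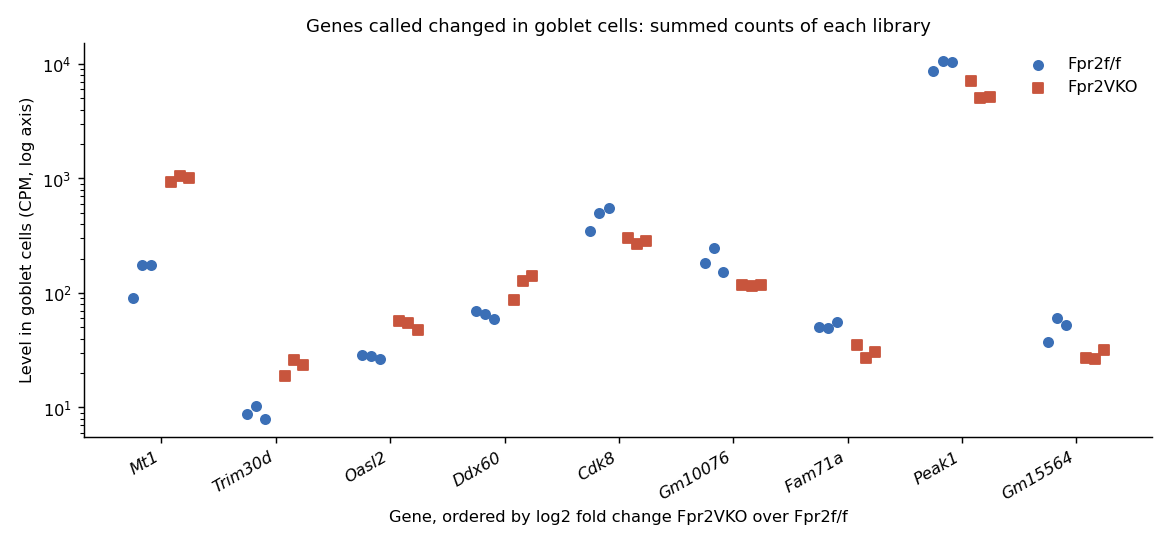
Level of the called genes in goblet cells (CPM, log axis) in each library, Fpr2f/f and Fpr2VKO. Mt1, Trim30d, Oasl2 and Ddx60 are higher and Gm15564, Peak1, Fam71a, Gm10076 and Cdk8 lower in all 3 Fpr2VKO libraries.

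Of 40 tested interferon-response genes, Oasl2 and Ddx60 were called higher in the Fpr2VKO goblet cells. Interferon-response genes encode antiviral sensors and effectors, and many carry in their promoters the interferon-stimulated response element, which interferon regulatory factors bind. Oasl2, an oligoadenylate synthetase-like protein, stood at 28.5, 28.1 and 26.8 CPM in Fpr2f/f and 57.2, 54.3 and 47.8 CPM in Fpr2VKO. The groups were far apart relative to their spread (log2 fold change 0.94, SE 0.14, edgeR, adjusted p = 0.00271). The call held in 19 of 20 alternatives and was lost when each cell was thinned to 2000 UMIs (0.55, adjusted p = 0.738).

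Ddx60, a helicase that promotes sensing of viral RNA, was at 69.9, 65.5 and 58.8 CPM in Fpr2f/f and 87.0, 126 and 139.5 CPM in Fpr2VKO. All 3 Fpr2VKO libraries were higher, with library 1 nearest to Fpr2f/f (log2 fold change 0.86, SE 0.15, edgeR, adjusted p = 0.0208). The call held in 12 of 20 alternatives. After thinning each cell to 2000 UMIs the log2 fold change was 0.30 (edgeR, adjusted p = 0.877). With a larger fold left, the call was lost without Fpr2f/f library 2 (0.87, adjusted p = 0.126), without Fpr2f/f library 3 (0.80, 0.165) and without Fpr2VKO library 3 (0.72, 0.0638), all by edgeR. It was also lost at the mitochondrial limit of 40% (0.67), among cells of at least 2000 UMIs (0.83) or with at least 5 of 6 markers (0.84), and without cells with at least 3 enteroendocrine markers (0.70).

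Trim30d, a member of the Trim30 cluster of tripartite-motif genes, was at 8.79, 10.2 and 7.93 CPM in Fpr2f/f and 18.8, 25.8 and 23.7 CPM in Fpr2VKO. The groups did not overlap (log2 fold change 1.31, SE 0.21, edgeR, adjusted p = 0.00505), but its mean over the 6 libraries was under 20 CPM, the limit set for naming genes, and it is named here after its values were seen. Its adjusted p was 0.0524 without Fpr2f/f library 3 and 0.751 after thinning. Close paralogues lie next to it, so reads could be assigned among them, and Trim30a was at 12.1 ± 2.54 CPM in Fpr2f/f and 8.28 ± 1.96 CPM in Fpr2VKO (SD, n = 3 each; log2 fold change -0.56, edgeR, adjusted p = 0.534).

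The promoters of Ddx60, Oasl2, Trim30d and Ifit1 are shown because they differ in this element. Ifit1 had the largest log2 fold change among the 40 tested genes of the interferon list. It reached the level of the filter on low counts in all libraries of Fpr2VKO alone. The sequences are the 250 bases before the start of each gene in RefSeq (GRCm38.p6), 5′ to 3′ on the gene's strand, and capitals mark every match to GAAANNGAAA or its reverse complement TTTCNNTTTC. They span chr8:61927837-61928086 (plus strand) for Ddx60, chr7:104507850-104508099 (minus strand) for Trim30d, chr19:34640639-34640888 (plus strand) for Ifit1 and chr5:114896684-114896933 (plus strand) for Oasl2.
Ddx60: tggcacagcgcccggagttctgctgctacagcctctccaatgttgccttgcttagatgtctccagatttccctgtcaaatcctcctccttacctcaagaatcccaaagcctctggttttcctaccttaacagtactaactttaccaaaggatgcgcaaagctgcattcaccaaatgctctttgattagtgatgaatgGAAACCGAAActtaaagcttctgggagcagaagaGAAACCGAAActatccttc
Trim30d: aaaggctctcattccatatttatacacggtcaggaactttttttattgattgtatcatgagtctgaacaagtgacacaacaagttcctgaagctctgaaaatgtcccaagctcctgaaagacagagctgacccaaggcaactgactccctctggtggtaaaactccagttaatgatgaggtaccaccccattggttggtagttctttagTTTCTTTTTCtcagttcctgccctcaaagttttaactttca
Ifit1: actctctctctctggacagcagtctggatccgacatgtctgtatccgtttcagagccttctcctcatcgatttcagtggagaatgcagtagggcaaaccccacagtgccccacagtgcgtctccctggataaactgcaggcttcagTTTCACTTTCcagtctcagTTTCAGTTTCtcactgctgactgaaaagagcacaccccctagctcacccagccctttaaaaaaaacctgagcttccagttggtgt
Oasl2: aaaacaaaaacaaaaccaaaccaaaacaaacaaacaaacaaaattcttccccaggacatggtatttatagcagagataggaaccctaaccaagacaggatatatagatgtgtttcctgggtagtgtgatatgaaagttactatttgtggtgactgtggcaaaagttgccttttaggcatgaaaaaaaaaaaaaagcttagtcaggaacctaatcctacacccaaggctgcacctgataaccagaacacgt

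Ddx60 held 2 matches, which began 53 and 19 bases before the start, and Ifit1 held 2, at 104 and 85 bases. Trim30d held 1, at 41 bases, and Oasl2 held 0 in this window. Of 32851 promoter windows of this length, 978 (2.98%) held a match on either strand, against 19 of the 37 interferon-response genes with a promoter sequence (51.4%). Among the tested genes of the list, 14 had a match, of which 11 had a higher estimate in Fpr2VKO (median log2 fold change 0.59), and 17 had none, of which 16 had a higher estimate (median 0.20). A match is a description of letters and does not show binding.

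The interferon list held 50 genes, of which 48 were in the files and 40 passed the filter on low counts. Of these 40, 35 had a higher estimate in Fpr2VKO and 5 a lower one, 2 were called (Oasl2 and Ddx60), and the median log2 fold change was 0.28 against -0.00024 over all genes tested. In 15 of the 40 all Fpr2VKO libraries were higher than all Fpr2f/f libraries, and in none were they lower, where 6.8% of all tested genes were higher and 7.03% lower without overlap. Of the 40, 4 reached the filter's level of 2.79 CPM in all libraries of Fpr2VKO but not of Fpr2f/f (Gbp2, Ifi44, Oas3 and Ifit1), so their direction was partly set by the filter, and 3 of these are among the 15. Without the filter 41 of 47 had a higher estimate, with a median of 0.37 and 6 called by edgeR, where 84 of 23339 genes were called. At an unadjusted p under 0.05, 15 genes of the list were higher, against 3.84% of all genes tested. The list's summed level was 830.6 to 910.4 CPM in Fpr2f/f and 1047 to 1225 CPM in Fpr2VKO goblet cells. After thinning to 2000 UMIs, 23 genes could be tested, 16 had a higher estimate, none was called and the median was 0.10.

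Members with higher estimates that missed the threshold included Ifit1, an RNA-binding antiviral protein, at 2.09, 3.52 and 8.26 CPM in Fpr2f/f and 16.8, 16.3 and 7.77 CPM in Fpr2VKO. Its groups overlapped (log2 fold change 1.62, SE 0.39, edgeR, adjusted p = 0.173). The receptor-transporting protein Rtp4 was at 5.86, 12.3 and 8.26 CPM and at 17.1, 21.7 and 21.8 CPM, without overlap (1.09, SE 0.23, edgeR, adjusted p = 0.0645). Ifi27 was at 15.5, 19.3 and 14.2 CPM and at 28.3, 33.7 and 28.0 CPM (0.85, SE 0.18, edgeR, adjusted p = 0.0563). Regulators of the pathway had small estimates, at 0.15 for Stat2, 0.067 for Irf9 and 0.11 for Irf7 on the log2 scale, and the ubiquitin-like Isg15 was at -0.13.

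The same list in the other kept barcodes had 36 of 47 tested genes with a higher estimate, a median log2 fold change of 0.23 and 0 called by edgeR, where 9 were higher at an unadjusted p under 0.05 (3.39% of all genes in these barcodes) and 13 were higher without overlap (6.35%). Oasl2 there was at 0.85 (edgeR, adjusted p = 0.157) and Ddx60 at 0.79 (adjusted p = 0.322), and neither gene's effect differed between goblet cells and other barcodes (interaction in edgeR, adjusted p = 1.0 for both). In level, Ddx60 was at 63.3 CPM in Fpr2f/f and 119 CPM in Fpr2VKO goblet cells, against 5.42 and 9.05 CPM in other barcodes and 5.39 and 7.96 CPM in free RNA. Among goblet cells with at least 10% of UMIs in the markers, Oasl2 was at 40.5, 37.7 and 46.7 CPM in Fpr2f/f and 94.5, 103 and 103 CPM in Fpr2VKO. Ddx60 in the same cells was at 145, 110.1 and 105 CPM and at 174, 300.2 and 354 CPM. Both genes were separated between genotypes in the 3 upper marker bands and overlapped in the lowest. By depth they were separated in the shallowest cells (1000 to 2000 UMIs) and in the deepest (at least 20000 UMIs), and overlapped in the 3 bands between. The shallowest band held 15, 40 and 20 cells in the Fpr2VKO libraries, with 23568, 59591 and 30914 UMIs in all. Oasl2 at 42.4, 33.6 and 32.3 CPM there rested on very few UMIs per library, as did Ddx60. The separation in that band is thus near the floor of detection. At 2000 to 5000 UMIs, for example, Ddx60 was at 279, 49.3 and 48.2 CPM in Fpr2f/f and 79.8, 82.7 and 132 CPM in Fpr2VKO.

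**Figure D4:**
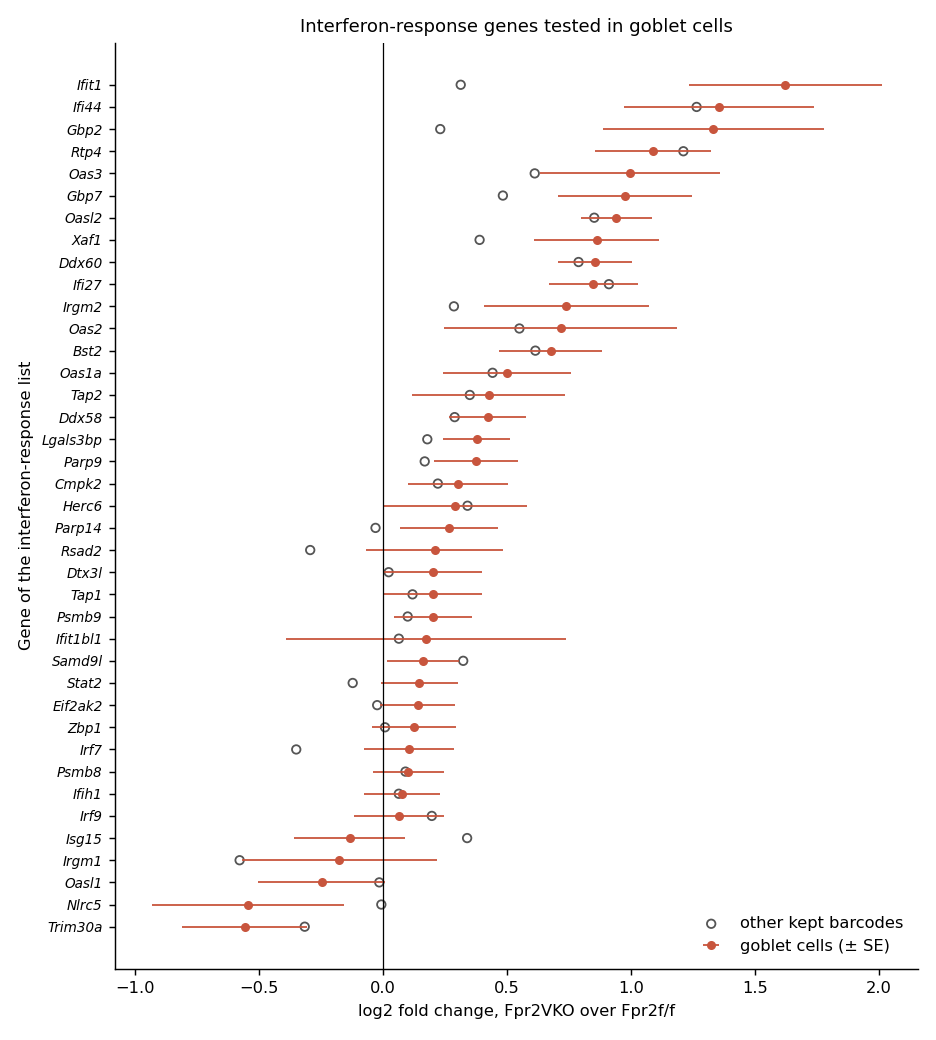
Log2 fold change (Fpr2VKO over Fpr2f/f, with SE) of interferon-response genes tested in goblet cells, with the estimate in the other kept barcodes beside it. Most goblet estimates lie above 0, and Oasl2 and Ddx60 are the called genes.

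Of the 5 genes called lower, Peak1, a scaffold pseudokinase of the cytoskeleton, was the most abundant. It stood at 8672, 10707 and 10326 CPM in Fpr2f/f and 7087, 5004 and 5196 CPM in Fpr2VKO, without overlap (log2 fold change -0.78, SE 0.14, edgeR, adjusted p = 0.0197). Cdk8, the kinase of the Mediator complex, was at 346, 502 and 548 CPM and at 299, 266 and 286 CPM (-0.72, SE 0.14, edgeR, adjusted p = 0.0422). Fam71a was at 50.6, 49.8 and 55.9 CPM and at 35.3, 27.3 and 30.7 CPM (-0.74, SE 0.15, edgeR, adjusted p = 0.0362).

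The other 2 genes called lower are not protein-coding in the annotation. Gm15564, annotated as antisense, was at 37.7, 60.5 and 52.9 CPM in Fpr2f/f and 27.3, 26.65 and 31.5 CPM in Fpr2VKO (log2 fold change -0.86, SE 0.16, edgeR, adjusted p = 0.0262). Gm10076, annotated as a long intergenic RNA, was at 181, 246 and 152 CPM and at 117, 115 and 118 CPM (-0.74, SE 0.14, edgeR, adjusted p = 0.0422). How strand was used in counting is not given in the sources used here, so reads of an antisense gene and of its partner could not be told apart.

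Peak1 and Cdk8 were lower in the deepest than in the shallowest goblet cells of every library. Over all libraries Peak1 was at 31232 CPM in goblet cells of 1000 to 2000 UMIs, 22895 CPM at 2000 to 5000, 17396 CPM at 5000 to 10000, 8175 CPM at 10000 to 20000 and 3561 CPM above, and Cdk8 went from 885 to 255 CPM between the lowest and the highest depth. The fall was not steady within each library: in Fpr2VKO library 1 Peak1 was at 14936, 20965 and 22279 CPM in the 3 shallowest bands, and Cdk8 was higher at 5000 to 10000 than at 1000 to 2000 UMIs in Fpr2VKO libraries 1 and 3. In the deepest cells Peak1 was at 3092, 4340 and 4550 CPM in Fpr2f/f and 2745, 3339 and 3009 CPM in Fpr2VKO, which overlapped. Peak1 was also at 16518 CPM in the free RNA of Fpr2f/f and 9610 CPM in that of Fpr2VKO. None of the 5 lower genes was called among cells of at least 2000 UMIs, where Peak1 was at -0.66 (edgeR, adjusted p = 0.350) and Cdk8 at -0.67 (0.258), nor among cells with at least 5 of the 6 markers. The fold changes of Gm15564 (-0.83), Fam71a (-0.70) and Gm10076 (-0.72) there were close to those over all cells. With each cell thinned to 2000 UMIs, Peak1 was at -0.72, Cdk8 at -0.67, Fam71a at -0.88, Gm10076 at -0.91 and Gm15564 at -0.66. None was called (edgeR, adjusted p from 0.0579 to 0.528). Thinning gives cells equal weight but keeps the relative levels within each cell. This fit therefore does not remove the fall of Peak1 and Cdk8 with the original depth of the cell. Among cells of at least 5000 UMIs Peak1 was at -0.52 (edgeR, adjusted p = 0.821) and Cdk8 at -0.55 (0.640). The estimates of the 5 genes thus kept their direction in these fits, without passing the test.

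**Figure D5:**
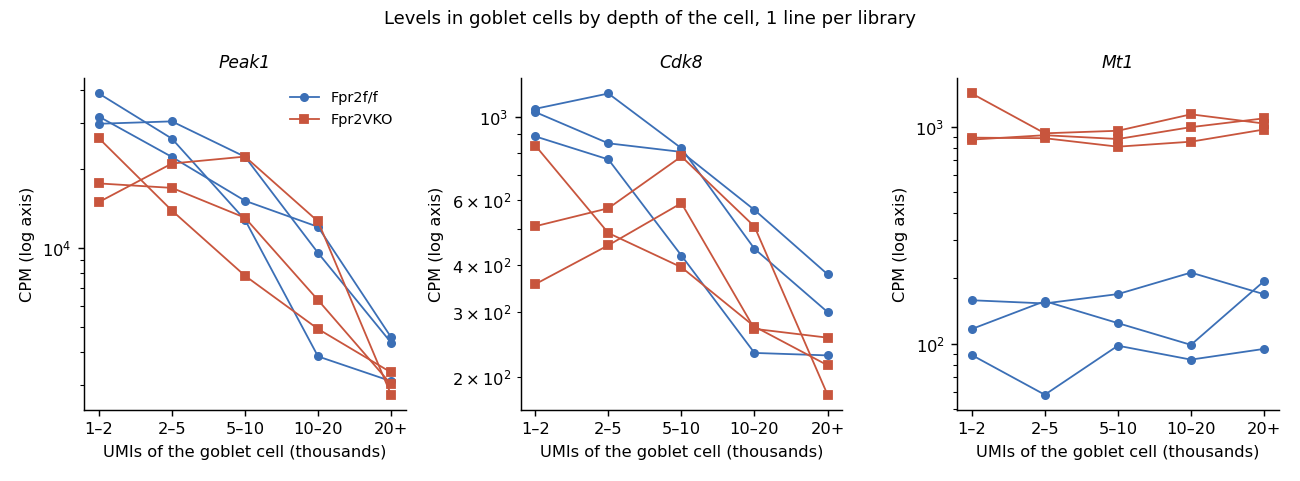
Levels in goblet cells (CPM, log axis) of Peak1, Cdk8 and Mt1 by depth of the cell (UMIs per cell, 5 bands), with a point for each library of Fpr2f/f and Fpr2VKO. Peak1 and Cdk8 are lower in the deepest than in the shallowest cells of every library, and Mt1 stays separated between genotypes in every band.

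The lower calls were lost in part of the fits that left out 1 library, with the direction kept. Peak1 was called without Fpr2f/f library 1 and without Fpr2VKO library 1 or 2, and was lost without Fpr2f/f library 2 (edgeR, adjusted p = 0.107), Fpr2f/f library 3 (0.112) and Fpr2VKO library 3 (0.130). Its log2 fold change in these 6 fits was -0.95 to -0.68. Cdk8 kept its call in 1 of 6 such fits, Gm10076 in 1, Gm15564 in 2 and Fam71a in 2, with ranges of -0.89 to -0.59, -0.88 to -0.51, -1.01 to -0.69 and -0.85 to -0.64. Their log2 fold changes were negative in all 20 alternatives.

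The genes next in order of p, at a mean of at least 20 CPM and without overlap, are given as values. On the higher side were the nuclear receptor Esrrg (33.3 ± 5.55 CPM in Fpr2f/f and 54.8 ± 8.01 CPM in Fpr2VKO, edgeR, adjusted p = 0.0535), Ifi27 as above, the interferon-inducible surface protein Ly6e (133 ± 15.6 and 198 ± 21.3 CPM, adjusted p = 0.0689), Dll1 (adjusted p = 0.105) and the deoxycytidine kinase Dck (18.4 ± 2.76 and 29.7 ± 1.18 CPM, adjusted p = 0.132). On the lower side were the ribosomal protein gene Rpl35 (647 ± 136 and 399 ± 60.7 CPM, edgeR, adjusted p = 0.0689), the small membrane protein gene Smim22 (171 ± 21.7 and 118 ± 2.11 CPM, 0.0727), the hexokinase Hk2 (209 ± 23.1 and 144 ± 14.2 CPM, 0.0955), the antisense gene 2900060B14Rik (32.9 ± 7.41 and 17.4 ± 4.68 CPM, 0.0955) and the actin-binding thymosin Tmsb10 (1299.8 ± 144 and 893 ± 49.1 CPM, 0.0955). The errors are SDs of n = 3 libraries.

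No gene of the mucus lists was called in the fit over all goblet cells and libraries. The 6 markers, as a description, were at similar levels: Muc2 was at 6439, 7176 and 7591 CPM in Fpr2f/f and 6309.6, 6186 and 6653 CPM in Fpr2VKO, with overlap. Tff3 was at 24572, 30797 and 26519 CPM and at 22045, 24182 and 20590 CPM, which did not overlap. Zg16 was at 23844 ± 2709.6 and 21456 ± 696 CPM, Fcgbp at 11304 ± 1666 and 10268 ± 1349.6 CPM, Clca1 at 2575 ± 296 and 2458 ± 424 CPM and Agr2 at 14912 ± 2838 and 15931 ± 1109 CPM (SD, n = 3 each).

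Among the other secreted goblet proteins 13 genes could be tested, of which 3 had a higher and 10 a lower estimate, none was called by edgeR (1 had an unadjusted p under 0.05) and the median log2 fold change was -0.18. Spink4 was at 24446, 27480 and 30910 CPM in Fpr2f/f and 18440, 21894 and 19123 CPM in Fpr2VKO. The groups did not overlap, but the adjusted p was 0.161 (edgeR, log2 fold change -0.48, SE 0.13). The 3 tested membrane mucins had a median of 0.0021.

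The enzymes and organelles of mucus production were also without calls. Of 21 mucin O-glycosylation enzymes 11 had a higher and 10 a lower estimate, with a median log2 fold change of 0.030. Galnt6, which starts O-glycan chains, was at 238 ± 15.1 CPM in Fpr2f/f and 190.35 ± 8.89 CPM in Fpr2VKO (edgeR, adjusted p = 0.378). Of 28 endoplasmic reticulum folding and unfolded protein response genes 11 were higher and 17 lower in estimate, with a median of -0.035.

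Within that list, Ern2 was at 153, 161 and 194 CPM in Fpr2f/f and 149, 122 and 123 CPM in Fpr2VKO, without overlap (log2 fold change -0.37, edgeR, adjusted p = 0.349). Ddit3, a stress-induced transcription factor, was at 37.7, 43.5 and 35.4 CPM and at 28.3, 26.2 and 28.4 CPM (-0.51, edgeR, adjusted p = 0.249). Granule transport genes (6 higher and 11 lower of 17) had a median of -0.058, and ion, bicarbonate and water transport genes (8 higher and 4 lower of 12) a median of 0.050. None of either list was called by edgeR, and each had 1 gene at an unadjusted p under 0.05.

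Of 15 transcription factors of the goblet and secretory lineages 11 had a higher and 4 a lower estimate in Fpr2VKO, with a median log2 fold change of 0.057 and no call by edgeR. Atoh1 was at 174, 181 and 205 CPM in Fpr2f/f and 199, 176 and 258 CPM in Fpr2VKO. Spdef was at 76.1, 96.5 and 101 CPM and at 91.8, 75.4 and 85.1 CPM, and Klf4 at 448, 547 and 470.3 CPM and at 485, 417 and 373 CPM. All 3 factors overlapped between genotypes. Foxa2, a forkhead factor of secretory cells, was at 9.20, 14.9 and 11.9 CPM and at 18.3, 15.3 and 22.5 CPM, which did not overlap (0.56, SE 0.22, edgeR, adjusted p = 0.439).

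Because Notch, Wnt and Hippo signalling were of interest in the study, these pathways were examined in the goblet cells. Of 9 tested Notch genes 3 had a higher and 6 a lower estimate, none was called by edgeR and 3 had an unadjusted p under 0.05, against 8.63% of all tested genes. The ligand Dll1 was at 134, 140.1 and 107 CPM in Fpr2f/f and 159, 191 and 226 CPM in Fpr2VKO. It did not overlap (log2 fold change 0.59, SE 0.13, edgeR, adjusted p = 0.105), and in the other barcodes it was at 0.095, the difference between both being 0.49 (interaction, SE 0.13, edgeR, adjusted p = 0.385).

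The Notch target Hes1, a repressor of Atoh1, was at 162, 134 and 173 CPM in Fpr2f/f and 110.1, 112 and 119 CPM in Fpr2VKO. It did not overlap either (log2 fold change -0.45, SE 0.12, edgeR, adjusted p = 0.161). Lfng, a glycosyltransferase that modifies Notch, was at 6.69, 8.79 and 10.6 CPM and at 11.4, 13.0 and 14.4 CPM (0.55, edgeR, adjusted p = 0.522). The 12 tested Wnt genes had a median of 0.016 and the 8 Hippo genes a median of -0.0055, without a call. An unadjusted p under 0.05 was found for 1 Wnt gene, lower in Fpr2VKO, and for 2 Hippo genes, Lats1 and Wwtr1, both higher. Over all tested genes 8.63% had such a p. The Hippo estimates ranged from -0.43 to 0.81. The Hippo kinase Lats1 was at 63.2, 49.7 and 59.2 CPM and at 83.3, 75.8 and 67.2 CPM (0.42, edgeR, adjusted p = 0.296).

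The cell cycle genes were compared as 2 lists. Of 16 mitosis genes 15 were higher in estimate in Fpr2VKO, with a median log2 fold change of 0.29, and of 19 DNA replication genes 13 were higher, with a median of 0.11. By edgeR none of either list was called, with 2 and 3 genes at an unadjusted p under 0.05, where 8.63% of all tested genes had such a p. Without Fpr2f/f library 2 the mitosis count at this p was 13 of 16, where 864 of 10835 tested genes had such a p. Among cells with a marker sum of at least 2%, 7 mitosis genes and 6 replication genes had such a p, and 1 replication gene was called. In that fit 1052 of 10519 tested genes had such a p and 26 were called. The number of mitosis genes with a higher estimate fell to 10 of 16 without Fpr2f/f library 1 or without Fpr2f/f library 3. In each of these fits 1 mitosis gene had an unadjusted p under 0.05. The median log2 fold change was 0.65 without Fpr2f/f library 2. After thinning to 2000 UMIs 6 of 10 tested mitosis genes were higher in estimate, with a median of 0.11. The other kept barcodes also had 15 of 16 higher, with a median of 0.18, which became 8 of 16 and -0.0041 without Fpr2f/f library 3. The DNA replication median in goblet cells was 0.045 to 0.25 without single libraries, lowest without Fpr2VKO library 2 and highest without Fpr2VKO library 1. Antigen presentation genes had 8 higher and 6 lower estimates of 14 (median 0.097), and immediate early and heat shock genes 6 higher and 12 lower of 18 (median -0.032).

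In the fit over all goblet cells and libraries, no marker of the enterocyte, enteroendocrine or stem cell lists was called by edgeR. Of 11 tested enterocyte markers 9 had a higher estimate (median log2 fold change 0.39). An unadjusted p under 0.05 was found for 4, of which 3 were higher, and the lowest estimate was -1.87. Fabp6 had 208, 699 and 889 UMIs in Fpr2f/f and 153, 176 and 164 in Fpr2VKO, not scaled to the library totals. A single cell held 18.7% to 75.96% of these UMIs in the Fpr2f/f libraries and 32.03% to 55.7% in the Fpr2VKO libraries. The share of goblet cells with a Fabp6 UMI overlapped, at 9.59% to 26.2% in Fpr2f/f and 9.17% to 22.99% in Fpr2VKO. The cluster led by Fabp6 held 6.51%, 10.9% and 6.93% of the Fpr2f/f goblet cells and 2.55%, 5.28% and 5.91% of the Fpr2VKO ones. Of 6 enteroendocrine markers all 6 had a lower estimate (median -0.83, 3 under 0.05). Over all tested genes 8.63% had such a p. The enterocyte marker Apoa4 reached the filter's level in all libraries of Fpr2VKO alone, and Chga in all libraries of Fpr2f/f alone, so both directions were partly set by the filter. Without the filter 0 of 12 enteroendocrine markers had a higher estimate, with a median of -1.15. Of the stem cell markers 6 of 6 had a higher estimate with a median of 0.056. The enterocyte list in the other kept barcodes had 10 of 12 higher estimates. The enteroendocrine median was -0.83 with the barcodes most like artificial doublets removed. It was -0.50 with 1 of 4 higher without goblet cells with at least 3 enteroendocrine markers, a choice of cells that itself lowers these markers. Without single libraries it ranged from -1.34 (without Fpr2VKO library 1) to -0.46 (without Fpr2f/f library 3), and 1 marker was called by edgeR without Fpr2f/f library 1, 2 or 3. Over all genes these 3 fits called 50 of 11373, 8 of 10835 and 5 of 11376. Chga and Chgb, both granins, were called lower with the replicate block (edgeR, adjusted p = 5.75e-05 and 3.91e-13) and by DESeq2 (2.48e-07 and 3.11e-06), and 1 enteroendocrine marker, Chga, without the filter or at 5000 UMIs. A single cell held 87.4% of the Chgb UMIs of Fpr2f/f library 1 and another 94.2% of those of library 3. At unequal depth, a Chgb UMI was found in 7.53%, 12.2% and 5.72% of the Fpr2f/f goblet cells and in 23.7%, 10.6% and 12.9% of the Fpr2VKO goblet cells. The part of free RNA in these values was not tested.

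The last comparison asked where the genotype effect in goblet cells differed from that in the other kept barcodes of the same libraries. In the other barcodes 2 of 16583 genes were called (0.0121%), Mt1 and Olfm4, both higher in Fpr2VKO, and 1337 had an unadjusted p under 0.05 (8.06%). Olfm4 there was at 812 ± 110.3 CPM in Fpr2f/f and 1827 ± 76.1 CPM in Fpr2VKO (SD, n = 3 each; log2 fold change 1.17, SE 0.14, edgeR, adjusted p = 0.0283). The interaction test called 3 of 15424 genes (0.0195%), Chga, Scn3a and Vim, each with a lower effect in goblet cells, and 593 had an unadjusted p under 0.05 (3.84%), 197 of them with a higher effect (1.28%). None of these 3 was among the 9 genes called in goblet cells, and none of those 9 passed the interaction test, so their effects were not shown to differ from those in the other kept barcodes.

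Chga encodes the granule protein chromogranin A of enteroendocrine cells. Its genotype effect was lower in goblet cells than in other barcodes by 2.80 on the log2 scale (difference -2.80, SE 0.30, edgeR interaction, adjusted p = 2.27e-05). Chga UMIs numbered 37, 200 and 26 in the Fpr2f/f goblet cells, in 9, 29 and 4 cells, and 12, 7 and 5 in the Fpr2VKO goblet cells, in 11, 6 and 5 cells. A single cell held 88.5% of the Chga UMIs of Fpr2f/f library 3. Goblet cells with at least 3 enteroendocrine markers numbered 10, 30 and 8 in Fpr2f/f and 28, 7 and 9 in Fpr2VKO. Without them, the difference for Chga was 0.60 (edgeR interaction, adjusted p = 1.0) and 0 genes were called by the interaction test. Chga is one of the markers used to leave out these cells, and only goblet cells were left out, so its change in this fit was set by the choice of cells.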

How the data were processed

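Single-cell RNA sequencing was performed on EpCAM-sorted ileal crypt cells of Fpr2f/f and Fpr2VKO mice, with 3 libraries each, and groups were taken from the labels. The labels give the control genotype as WT and the other as intestinal epithelial Fpr2 knockout. The names Fpr2f/f and Fpr2VKO follow the study's description of its mice. The deposited matrices held raw UMI counts of 32285 genes in 2359296 listed barcodes per library, which the authors made with the platform's MobiVision software against the mouse build mm10. The annotation version and the strand setting are not given in the sources used here. The authors' later steps with Seurat (4.0 and 4.0.0 in the submitters' processing notes) and their doublet removal were not part of these matrices. No per-sample column was left unused.

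Goblet cells were selected in every library by the limits given at the start of the report. The cells, gene lists and comparisons were chosen with earlier results of these data known. UMI counts were summed over the goblet cells of each library, and over all other kept barcodes, and tested in R 4.3.3 with edgeR 4.0.16 (TMM scaling, filterByExpr, robust quasi-likelihood test), with Benjamini-Hochberg adjustment over all genes tested and a call at an adjusted p under 0.05. The difference in genotype effect was tested in edgeR with library as a block. Shares and medians per library were compared by exact two-sided permutation tests in scipy 1.17.1, which cannot go below p = 0.1 with 3 against 3. Shares of cells with a mitosis UMI were taken after thinning each cell to 2000 UMIs, and cells below this depth were left out. Clusters of goblet cells were found with leidenalg 0.10.2 (20 principal components, 15 neighbours, resolution 0.6).

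Named genes were those of the lists, called genes with a mean of at least 20 CPM and no overlap, the 5 next genes in each direction by p, genes called by the interaction test, and the genes of highest fold over other barcodes with at least 100 CPM. On simulated data with 200 changed genes among 10890, the goblet test recovered 73.5% of those changed by 1 on the log2 scale and 96% of those changed by 2, and the interaction test 56.5% and 96.5%. Of the calls, 8.12% and 7.69% were false in the goblet test and 8.13% and 5.39% in the interaction test, above the nominal level. For the interaction test the other kept barcodes were simulated with a fixed dispersion, independently of the goblet cells of the same library. The simulation covered these 10890 genes and the real interaction test 15424, so its rates may not hold for the real test. No libraries of a group were copies of each other (chi-square per degree of freedom 3.63 to 8.38). Libraries with the same number in both genotypes had correlations of their deviations of 0.0139, 0.0952 and 0.102. Those with different numbers had correlations of -0.172 to 0.0772. The main fits did not treat equal numbers as pairs, and whether they mark pairs was not settled by these values. Alternatives were other limits for mitochondrial UMIs, depth, markers and Paneth genes, doublet removal, thinning, RLE scaling, DESeq2 1.42.0, no filter on low counts, a replicate block and leaving out each library. Doublet removal took out the barcodes with the largest share of artificial doublets among their nearest neighbours (0.8% per 1000 barcodes). Cells of at least 5000 UMIs, and goblet cells without enteroendocrine markers, were added after seeing the data. 1 gene of the interferon-response list is counted in the list's totals and is not reported here by name. Intervals and floors cover counting error only. Promoter sequences came from RefSeq (GRCm38.p6) and gene positions from GENCODE on GRCm38.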

Additional observations from a re-analysis of the deposited data

Results flagged for a closer look

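The genotype effect (Fpr2VKO over Fpr2f/f, log2) differed between goblet cells and the other kept barcodes of the same libraries for 3 genes by the interaction test in edgeR. For Chga the goblet effect minus the other effect was -2.80 (SE 0.30, adjusted p = 2.27e-05), for Scn3a, a voltage-gated sodium channel gene, -2.82 (SE 0.51, adjusted p = 0.0148) and for Vim, the intermediate filament vimentin, -2.15 (SE 0.38, adjusted p = 0.0119). Vim had 36, 33 and 6 UMIs in the goblet cells of the 3 Fpr2f/f libraries and 6, 5 and 5 in those of the 3 Fpr2VKO libraries. Scn3a had 22, 24 and 5 UMIs against 5, 0 and 2. In Fpr2f/f library 1 a single goblet cell held 88.9% of the Vim UMIs and 90.9% of the Scn3a UMIs. Without goblet cells with at least 3 enteroendocrine markers the differences were 0.60 for Chga, 0.31 for Vim and -0.46 for Scn3a, each at an adjusted p of 1.0 in edgeR. Chga is itself one of these markers, so this fit does not test its difference. Chga remained called when each library was left out in turn, whereas Vim lost its call without Fpr2f/f library 1 (-1.72, adjusted p = 0.114), Fpr2f/f library 3 (-2.18, 0.101) or Fpr2VKO library 1 (-1.87, 0.210), and Scn3a without Fpr2f/f library 1 (-2.52, 0.0892), Fpr2f/f library 3 (-2.84, 0.101) or Fpr2VKO library 2 (-2.21, 0.127).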

How the results depend on the processing

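The goblet share difference (0.35 percentage points) was 3.56 at a mitochondrial limit of 10%, where the groups did not overlap, and reversed to -1.50 at 40%. It ranged from -0.31 (without Fpr2VKO library 2) to 1.21 when each library was left out. The difference in median UMIs (2506) was 14291 at the 10% limit and 563 at the 40% limit, and 1841 to 3324 without single libraries. The groups overlapped in depth at the 40% limit, at 2000 UMIs, with 5 of 6 markers, with a marker sum of at least 2% and with Paneth genes under 5%. The mitosis difference (5.42 percentage points) was 14.6 without thinning and 3.19 to 8.90 without single libraries. The 9 genes called in goblet cells became 22 at the 40% limit (5 shared), 3 at 2000 UMIs or with 5 of 6 markers, 26 with a marker sum of at least 2%, 5 after thinning (1 shared, Mt1) or at 5000 UMIs, 22 by DESeq2, 84 without a filter on low counts and 5 to 50 without single libraries, the 50 without Fpr2f/f library 1 (8 shared). With the replicate block, which the main fit did not use and the pairing check did not settle, 28 genes were called, all 9 among them. Calls in the other barcodes (2) became 79 without the filter, 3 with the replicate block and 1 to 36 without single libraries, the 36 without Fpr2f/f library 1. Interaction calls (3) became 0 without cells with enteroendocrine markers, 15 without the filter and 1 to 12 without single libraries. Single-gene estimates that reversed were Parp9 (-0.091) and Ccnb2 (-0.17) after thinning and, without enteroendocrine-marker cells, Chgb in goblet cells (0.45) and the differences for Vim (0.31) and Chga (0.60); fewer cells or UMIs entered these fits, and the marker cells were chosen with Chga and Chgb themselves. Of 1174 alternative values for 60 single genes in goblet cells, 1032 kept direction and side of the threshold, 62 lost it, 77 gained it and 3 reversed. Most of the 60 genes were not called in the main fit, and only the 9 called genes could lose a call. Their losses ranged from 0 of 20 alternatives for Mt1 to 12 of 20 for Cdk8. The cause of the other changes was not tested. On simulated data 73.5% of goblet genes changed by 1 on the log2 scale were recovered, so effects of that size could be missed.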
